A study of Rattus norvegicus with 4 samples.

Results

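Several miRNAs have been described as repressors of Runx2, the transcription factor that drives chondrocyte hypertrophy and osteoblast differentiation. The products of miR-135, miR-204, miR-211, miR-218 and miR-338 were followed here in rat growth plate chondrocytes and in the matrix vesicles (MVs) that these cells deposit in their matrix. They were chosen by number in the miRNA name, with any letter or arm, and the reads of equal names were added. The rule gave 14 mature miRNAs from 15 loci, out of 740 names from 774 loci. Of the 14, 10 had a read in at least 1 library, 3 had reads in all 4 libraries, and 4 had none. The same rule covers miR-335, but no product of that number was among the rows used, so it was not analysed here.

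There was 1 small RNA library for each of 4 groups. RC-cells were chondrocytes of the resting zone of rat costochondral cartilage and RC-MVs were the vesicles isolated from their cultures. GC-cells were chondrocytes of the growth zone, the more mature prehypertrophic and upper hypertrophic cells, and GC-MVs were their vesicles. All cells came from male Sprague Dawley rats, were in passage 4, and were grown to confluence with ascorbic acid and fetal bovine serum, from which exosomes had been removed by centrifugation. Vesicles were pelleted by ultracentrifugation after trypsin digestion of the cell layer. The labels do not say how many animals stand behind a library, and no group received a further treatment.

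A miRNA gene is transcribed as a hairpin from which a short duplex is cut. One strand, named 5p or 3p after its arm, is usually kept by an Argonaute protein, and it pairs with target mRNAs mainly through its seed, bases 2 to 8. The other strand is usually degraded. In the growth plate, resting chondrocytes express little Runx2, and its activity increases as cells become hypertrophic. RNA in matrix vesicles lies outside the cells and may be taken up by others. Most of the genes studied here lie inside larger genes and can be transcribed with them. In the RefSeq table of the GRCr8 assembly, Mir204 lies within the ion channel gene Trpm3, Mir211 within Trpm1, Mir218-1 and Mir218-2 within the axon guidance genes Slit2 and Slit3, and Mir338 within the kinase gene Aatk.

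All 14 names matched a RefSeq mature sequence (GRCr8). Of the 5 sequences here, 4 are the miRNAs that the comparisons turn on, and miR-338-3p is shown because no library held a read of it. Capitals mark the seed.
miR-204-5p: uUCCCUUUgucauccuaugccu
miR-211-5p: uUCCCUUUgucauccuuugccu
miR-204-3p: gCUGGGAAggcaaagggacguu
miR-218a-5p: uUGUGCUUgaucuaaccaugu
miR-338-3p: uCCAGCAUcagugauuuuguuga
miR-204-5p and miR-211-5p share the seed UCCCUUU and differed at 1 of 22 bases, A17U, counted from the 5′ end with the base of miR-204-5p first. The other shared seed was AUGGCUU, in miR-135a-5p and miR-135b-5p. The remaining 10 names had a seed each of their own. miR-204-5p lies at chr1:229743493-229743514 on the plus strand and miR-204-3p at chr1:229743532-229743553. miR-211-5p lies at chr1:127189353-127189374, also on the plus strand. miR-218a-5p comes from chr14:66922413-66922433 on the minus strand (Mir218-1) and from chr10:20572547-20572567 on the plus strand (Mir218-2). miR-338-3p lies at chr10:105796345-105796367 on the minus strand. These coordinates belong to GRCr8, whereas the reads were counted on Rnor_6.0.

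The cell libraries held 6517329 (RC) and 7414467 (GC) miRNA reads, and the vesicle libraries 1108821 (RC) and 982543 (GC). Each count is given as a share of all miRNA reads of its library. The cell libraries were deeper, and 3 reads, the limit that a count of 0 allows, were 4.60e-05% of RC-cells and 4.05e-05% of GC-cells, against 0.000271% of RC-MVs and 0.000305% of GC-MVs. Each group had a single library, so the spread between replicates is unknown and no test was made. The 95% intervals (Wilson for a share, exact Clopper-Pearson for a ratio, exact conditional for a ratio of ratios) cover counting error alone, and PCR copies of a molecule count as reads. The cartilage list (miR-140, miR-455 and miR-675, both arms) held between 0.526% and 1.00% of the reads, although both arms of miR-675 had at most 1 read in any library. The vesicle libraries also differed from the cells in other lists. All 7 measured blood miRNAs together held 0.00126% of reads in RC-cells, 0.00123% in GC-cells, 0.0887% in RC-MVs and 0.190% in GC-MVs, with miR-223-3p at 0 in GC-cells, and miR-122-5p of liver held 0.000491%, 0.000459%, 0.401% and 1.14% in the same order. The 7 neural miRNAs held 0.0478%, 0.0428%, 0.0170% and 0.0161% in that order, with miR-124-3p and miR-153-3p at 0 in all libraries. The part of these RNAs in the vesicle results below was not tested.

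The 14 miRNAs were scarce. Together they held 0.0510% of the miRNA reads in RC-cells (95% interval 0.0493 to 0.0528), 0.0573% in GC-cells (0.0556 to 0.0590), 0.0126% in RC-MVs (0.0107 to 0.0149) and 0.0266% in GC-MVs (0.0235 to 0.0300). The interval of each vesicle library lay below those of both cell libraries. In all 4 libraries most of these reads were miR-218a-5p, which is also known as a miRNA of motor neurons. It made up 78.2% of the reads of the group in RC-cells and 94.3% in GC-cells, and 57.1% and 91.6% in their vesicles.

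Among single miRNAs, miR-218a-5p had 2599 reads in RC-cells and 80 in the vesicles of that zone, a share of 0.0399% against 0.00721%. It had 4006 reads in GC-cells and 239 in their vesicles, a share of 0.0540% against 0.0243%. None of the 4 intervals overlapped, and the order from the highest was GC-cells, RC-cells, GC-MVs and RC-MVs. It ranked 97th of 496 detected miRNAs in RC-cells and 75th of 501 in GC-cells, and 169th and 111th of 431 in RC-MVs and GC-MVs.

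rno-miR-204-5p, a miRNA abundant in the retinal pigment epithelium that is described to favour fat over bone differentiation, had 488 reads in RC-cells, a share of 0.00749%, and 34 in RC-MVs, a share of 0.00307%. It held 0.00173% of the reads in GC-cells and, with 9 reads, 0.000916% in GC-MVs. RC-cells stood above the other libraries. RC-MVs stood above GC-cells, with the low end of its interval at 0.00219% and the high end of that of GC-cells at 0.00205%, whereas the intervals of GC-cells and GC-MVs overlapped. The gap between RC-MVs and GC-cells is narrow and holds for shares of library totals. The factors of edgeR's TMM normalization, 1.13 for RC-MVs and 0.843 for GC-cells, bring these 2 shares of miR-204-5p closer. miR-211-5p, its seed partner and a miRNA of melanocytes, held 0.00342% of the reads in RC-cells and 0.00138%, from 102 reads, in GC-cells. Its 11 reads in RC-MVs were 0.000992% and its 4 in GC-MVs 0.000407%. Here RC-cells stood above the other libraries. The interval of RC-MVs overlapped those of GC-cells and GC-MVs, whereas GC-cells (0.00113 to 0.00167) stood just above GC-MVs (0.000158 to 0.00105). The opposite arm of miR-204, rno-miR-204-3p, had 1 read in RC-cells and 0 in GC-cells, but 12 in RC-MVs and 8 in GC-MVs.

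**Figure D1:**
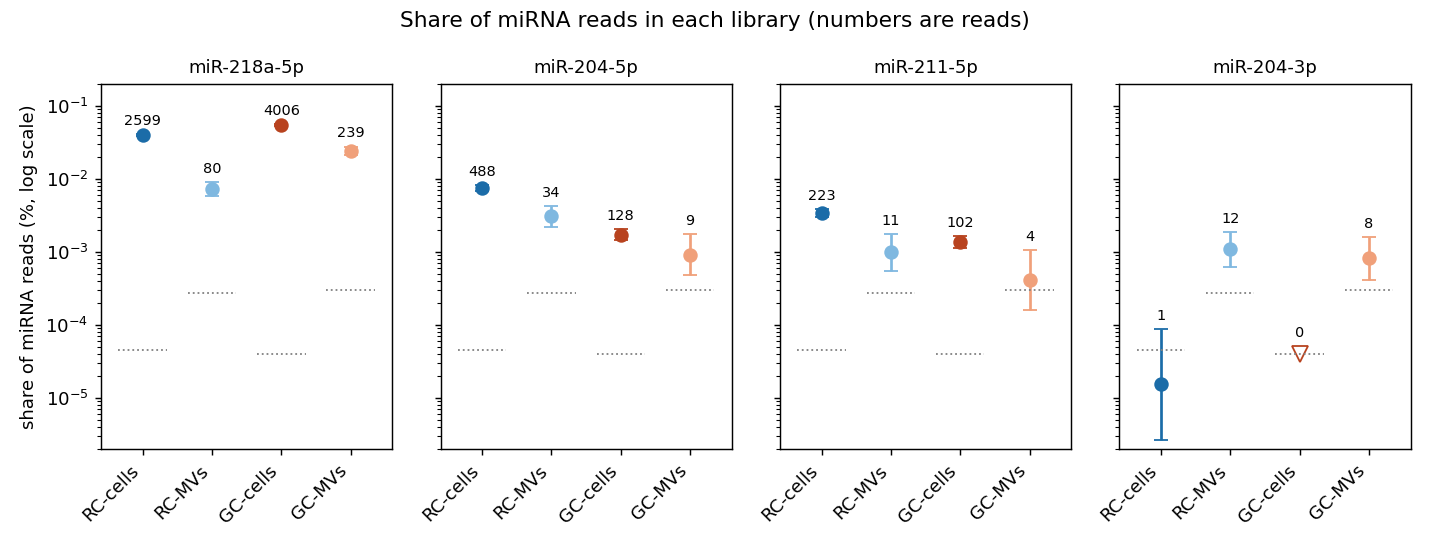
Share of miRNA reads (%, log scale) of 4 miRNAs in the 4 libraries, with 95% Wilson intervals and the reads printed above each point. Dotted lines mark 3 reads, and the open triangle stands for 0 reads. The points of the 5p miRNAs lay higher in cells than in the vesicles of the same zone, with overlapping intervals for miR-204-5p in the growth zone, and miR-204-3p was higher in vesicles, with 12 and 8 reads against 1 and 0.

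The comparison of vesicles with the cells that made them asks which of these miRNAs are found outside the cell. In the resting zone, 5 of the 14 had reads in both libraries. Of these, the share of 3 fell short of that in RC-cells by 2-fold or more and the share of 1 exceeded it by as much. Over all 414 miRNAs with reads in both, 30.4% were lower and 33.6% higher by this rule, and the median log2 ratio was 0.08, against -1.29 over the 5. With so few members these counts describe single miRNAs.

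Against RC-cells, miR-218a-5p was 5.53-fold lower in RC-MVs (4.42 to 6.99). miR-211-5p was 3.45-fold lower (1.89 to 7.01), and miR-204-5p was 2.44-fold lower (1.72 to 3.57). For miR-218a-5p the whole interval lay beyond 2-fold, but for miR-204-5p and miR-211-5p it reached below 2-fold. The authors also measured miRNAs of these groups with a PCR array. That array had the opposite direction for miR-211-5p, listed as found in RC-MVs but not in RC-cells. It listed miR-218a-5p as lower in RC-MVs. The passenger strand miR-218a-1-3p had 1 read in RC-MVs and 7 in RC-cells, a ratio of 0.840 (0.0186 to 6.54) that leaves its direction undetermined at this depth. The remaining ratio was that of miR-204-3p. It was higher in RC-MVs by 70.5-fold, with a wide interval from 10.4 to 3015 because RC-cells had a single read. With a pseudocount of 0.5 the ratio was 49.0. A single read lies under 3 reads, so this fold cannot be compared with the growth zone value below, which is set against 3 reads.

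In the growth zone, 4 of the 14 had reads in both libraries, of which 2 were lower in GC-MVs by 2-fold or more and 1 was higher by as much. The shares over all 417 miRNAs were 25.2% lower and 32.1% higher. miR-218a-5p was 2.22-fold lower in GC-MVs (1.95 to 2.54) and miR-211-5p was 3.38-fold lower (1.28 to 12.6), the second with 4 vesicle reads. For miR-204-5p the ratio was 0.531 (0.237 to 1.04), so that its difference was within counting error. With edgeR's TMM normalization or DESeq2's size factors its ratio passed 2-fold, at 0.454 and 0.479. The miRNA counted as higher was miR-218a-2-3p, which had 1 read in GC-MVs and 2 in GC-cells. Both lie under 3 reads, so no fold is given and no direction can be read from it. miR-204-3p had no read in GC-cells, and its 8 reads in GC-MVs made its share at least 20.1-fold higher when GC-cells were set at 3 reads. The counting interval of the ratio itself began at 12.9.

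**Figure D2:**
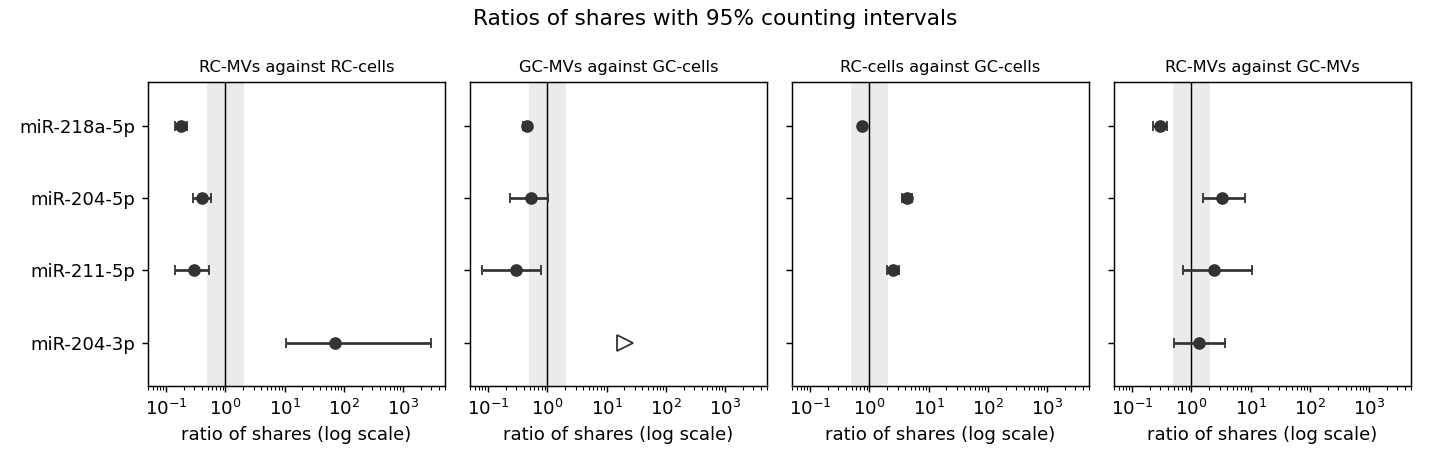
Ratios of shares (log scale) in 4 comparisons for 4 miRNAs, with exact 95% counting intervals. Grey bands span 2-fold in either direction, the open triangle is a lower bound against 3 reads, and the missing point is a comparison of 1 with 0 reads. miR-218a-5p lay left of 1 in each panel, whereas miR-204-5p and miR-211-5p lay left of 1 for vesicles against cells and right of 1 for RC against GC.

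Both strands of the miR-204 hairpin could therefore be compared within a library, where the total of the library plays no part. The 3p arm made up 1 of 489 reads of miR-204 in RC-cells, or 0.204% (0.0361 to 1.15), and 12 of 46 in RC-MVs, or 26.1% (15.6 to 40.3). In the growth zone it had no read in GC-cells, where the interval of its share ended at 2.91%, and 8 of 17 in GC-MVs, or 47.1% (26.2 to 69.0). The intervals of cells and vesicles did not overlap in either zone, whereas those of RC-MVs and GC-MVs did. In GC-MVs both arms were thus present at nearly equal counts.

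For miR-211 the depth was too low to compare. Its 3p arm had 1 of 12 reads in RC-MVs, or 8.33% (1.49 to 35.4), 0 of 4 in GC-MVs (0 to 49.0) and 0 in both cell libraries, and the intervals of the vesicles include the values of miR-204. For miR-218a, the 3p arms of both loci together held 0.345% of reads in RC-cells against 1.23% in their vesicles, and 0.249% in GC-cells against 0.417% in theirs, and the interval of the vesicles overlapped that of the cells in each zone. Among all precursors with at least 10 reads of both arms together in cells and in vesicles, the arm with fewer reads in the cells gained share in vesicles in 91 of 195 precursors of the resting zone and 87 of 191 of the growth zone, with a median change of 0 percentage points. In the resting zone Mir204 gained 25.9 points, the 25th largest gain, and for the growth zone it was 47.1 points, the 5th largest. The arms also differ in base composition, as miR-204-3p has 59.1% G and C and miR-204-5p has 45.5%. The part of base composition in the shift was not tested.

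**Figure D3:**
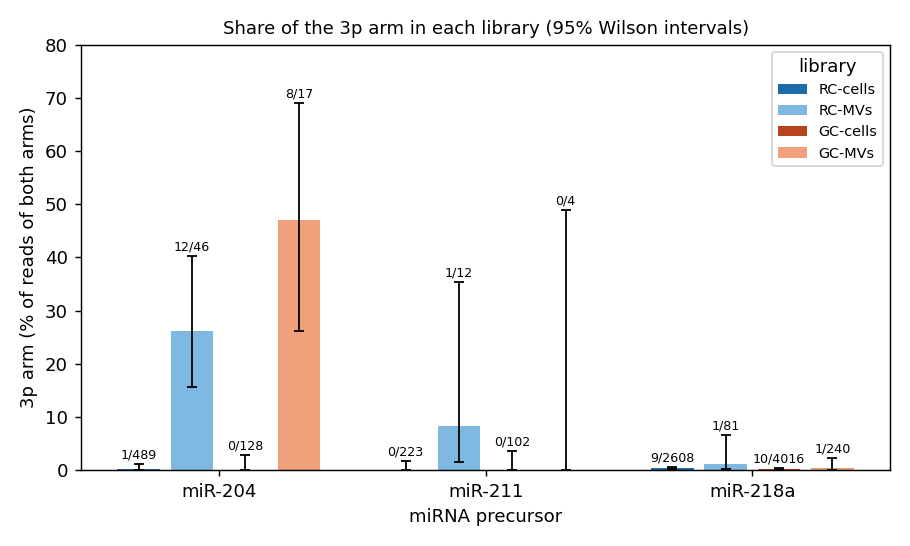
Reads of the 3p arm as a percent of the reads of both arms, for 3 hairpins in the 4 libraries, with 95% Wilson intervals and the reads of the 3p arm over those of both arms. For miR-204 the 3p arm held 26.1% in RC-MVs and 47.1% in GC-MVs but at most 0.204% in the cells, and for miR-218a it stayed at or below 1.23%.

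The comparison of RC-cells with GC-cells asks how these miRNAs differ between less and more mature chondrocytes. Of the 5 members with reads in both, 2 were higher in RC-cells by 2-fold or more and 0 lower, beside 13.7% higher and 5.7% lower of all 474 miRNAs. These 2 were the seed partners. In these bulk libraries fewer cells that make a miRNA and fewer copies per cell cannot be told apart. The share of miR-204-5p was 4.34-fold higher in RC-cells than in GC-cells (3.56 to 5.31), the 12th highest ratio of the 474. That of miR-211-5p was 2.49-fold higher (1.96 to 3.18), which fell to 1.94-fold with size factors and 1.97-fold with TMM normalization, just under the threshold. In contrast, miR-218a-5p was 1.35-fold lower in RC-cells (1.29 to 1.42), so that its interval excluded equal shares without reaching 2-fold. miR-204-5p thus exceeded miR-211-5p by 2.19-fold in reads in RC-cells (1.86 to 2.58) and by 1.25-fold in GC-cells (0.960 to 1.64), and these intervals did not overlap. The authors' PCR array had the opposite direction for miR-211-5p, listed as found in GC-cells but not in RC-cells. It listed miR-204-5p as higher in RC-cells.

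Because the seed partners differ at a single base, the counting could have moved reads between them. Their summed reads were 711 in RC-cells and 230 in GC-cells, 45 in RC-MVs and 13 in GC-MVs. The sum was 3.52-fold higher in RC-cells than in GC-cells (3.03 to 4.10) and in RC-MVs 3.07-fold above GC-MVs (1.63 to 6.20). Between vesicles and cells the ratio of the sum was 0.372 (0.269 to 0.503) for the resting zone and 0.427 for the growth zone (0.224 to 0.744). The intervals of the sum excluded equal shares in all 4 comparisons.

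Between the vesicles of the zones, 4 members had reads in both libraries, of which 2 were higher in RC-MVs by 2-fold or more and 1 was lower by as much. Over all 397 miRNAs, 24.7% were higher and 14.6% lower. The share of miR-204-5p in RC-MVs was 3.35-fold that in GC-MVs (1.57 to 7.94), and 2.16-fold with miR-143-3p, miR-22-3p and miR-21-5p left out of the totals. miR-211-5p was 2.44-fold higher, with an interval that included equal shares (0.722 to 10.5), and with these totals it was 1.57-fold higher. For miR-218a-5p the direction was the opposite, 3.37-fold lower in RC-MVs (2.61 to 4.40), or a ratio of 0.297, which was 0.192 with these totals. miR-204-3p, with 12 and 8 reads, had a ratio of 1.33 (0.50 to 3.75), which was 0.859 with these totals, and could not be told apart between the vesicles. The authors' PCR array listed miR-204-5p as higher in RC-MVs than in GC-MVs. By its rule of at least 2-fold with statistical significance, it listed neither miR-218a-5p nor miR-211-5p as different between these vesicles.

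In these single libraries the zone difference of miR-218a-5p was therefore larger in vesicles than in cells, though the array did not list it between the vesicles. Its ratio of vesicles to cells was 0.181 for the resting zone against 0.450 for the growth zone, and the first divided by the second was 0.402 (0.307 to 0.522). This placed it 46th from the lowest of 384 miRNAs with reads in all libraries, whose median was 0.981. For miR-204-5p the same quotient was 0.772 (0.351 to 1.88) and for miR-211-5p 0.980 (0.281 to 4.32), both with intervals that included 1. The RC-MV library was prepared once, so a difference of that preparation and a difference of the zone cannot be told apart.

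miR-218a-5p is cut from 2 loci with the same mature sequence. In RC-cells 1384 reads were counted at Mir218-1 and 1215 at Mir218-2, and in GC-cells 1947 and 2059. In RC-MVs the counts were 30 and 50, and in GC-MVs 115 of 239 were at Mir218-1. Mir218-2 thus held 46.7% of the reads in RC-cells (44.8 to 48.7), 51.4% in GC-cells (49.8 to 52.9), 62.5% in RC-MVs (51.5 to 72.3) and 51.9% in GC-MVs (45.6 to 58.1). The interval of RC-MVs did not overlap that of RC-cells. By locus, RC-MVs had a ratio to RC-cells of 0.127 at Mir218-1 and 0.242 at Mir218-2. How reads that fit both loci were assigned is not given in the sources used here, and the sum is the value to read. miR-218b, annotated on the opposite strand of Mir218-1, had 0 reads in every library. Its 20 bases are the reverse complement of the first 20 of miR-218a-5p, and no read of this sequence was counted on that strand.

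The remaining members were at or near the limit of detection. rno-miR-338-3p and miR-338-5p had 0 reads in all 4 libraries, which limits each to 4.05e-05% of miRNA reads in GC-cells and to 0.000305% in GC-MVs. miR-3065-5p, which is annotated on the strand opposite to Mir338 and was named after its values were seen, had 9 and 11 reads in RC-cells and GC-cells, and 1 and 3 in their vesicles. miR-135a, which targets Runx2 and the BMP mediator Smad5, was found in RC-cells alone, with 2 reads of the 5p arm and 3 of the 3p arm. miR-135b-5p had no read, and miR-135b-3p and miR-211-3p had 1 read each, in RC-MVs. No fold is given for the products of miR-135, miR-338 and the 3p arm of miR-211, since none exceeded 3 reads.

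Other miRNAs of the set that is described to act on Runx2 during osteogenic differentiation are miR-23a-3p, miR-30c-5p, miR-34c-5p, miR-133a-3p, miR-137-3p, miR-205 and miR-217-5p. These 7 together had 11.2 times as many reads as the 14 members in RC-cells and 7.12 times in GC-cells, and 39.1 and 20.0 times as many in RC-MVs and GC-MVs, mostly from miR-23a-3p. miR-23a-3p had 0.356% and 0.222% of the reads in RC-cells and GC-cells, against 0.457% and 0.463% in their vesicles. miR-137-3p had no read, and miR-205 and miR-217-5p had at most 2 in a library.

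Between vesicles and cells, 3 of the 7 had reads in both libraries of the resting zone. By the 2-fold rule 0 were higher and 2 lower in RC-MVs, beside 33.6% and 30.4% of all miRNAs. In the growth zone 6 had reads in both, with 4 higher and 2 lower, beside 32.1% and 25.2% of all, and miR-205 and miR-217-5p were among the higher with 1 and 2 vesicle reads. The lower ones were miR-30c-5p and the p53-linked miR-34c-5p in both zones. miR-30c-5p had a ratio of 0.172 (0.149 to 0.198) for the resting zone and 0.414 for the growth zone (0.371 to 0.460), beside 0.181 and 0.450 for miR-218a-5p. For miR-34c-5p the ratios were 0.160 and 0.289. The quotient of both zones was 0.417 for miR-30c-5p (0.347 to 0.498) and 0.556 for miR-34c-5p (0.460 to 0.671), so that a lower vesicle ratio in the resting zone was not particular to miR-218a-5p. miR-23a-3p was 2.09-fold higher in GC-MVs than in the cells of that zone, and 1.28-fold in RC-MVs. The muscle miRNA miR-133a-3p had 0 reads in RC-cells against 6 in their vesicles and 3 in GC-cells against 28 in theirs, a ratio of 70.4 in the growth zone (21.8 to 362). The 6 muscle miRNAs together held 0.00994% and 0.00859% of the reads in RC-cells and GC-cells, and 0.00325% and 0.00926% in RC-MVs and GC-MVs, with miR-208a-3p at 0 in all libraries. Between RC-cells and GC-cells 4 of the 7 had reads in both and none reached 2-fold, beside 13.7% higher and 5.7% lower of all. Between RC-MVs and GC-MVs 5 had reads in both, with 0 higher and 3 lower in RC-MVs, beside 24.7% and 14.6% of all, and miR-217-5p was among the lower with 1 read against 2. With so few miRNAs these counts are a description of single ones.

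**Figure D4:**
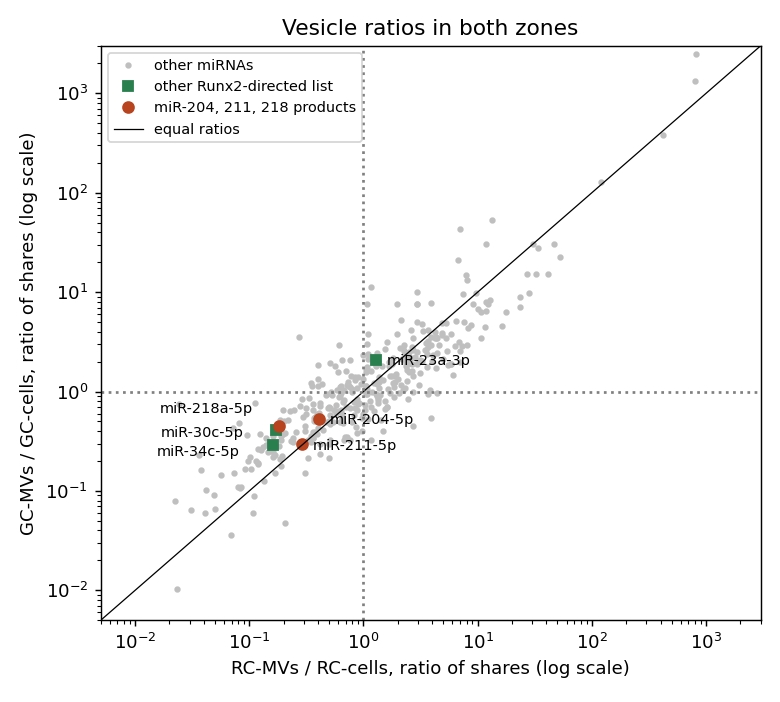
Ratio of shares of vesicles to cells in the resting zone (x axis) and in the growth zone (y axis), both on log scales, for the 384 miRNAs with reads in all libraries. The line marks equal ratios. miR-218a-5p lay beside miR-30c-5p above the line, at 0.181 and 0.450, and miR-204-5p and miR-211-5p lay near the line, also below 1 in both zones.

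Likeness of pattern was measured as the distance between log2 shares centred over the 4 libraries, among 262 miRNAs with at least 10 reads in each. miR-218a-5p was the only member in this set. The nearest to it was miR-31a-3p, at a distance of 0.0223 against a median of 2.65 over the others, with 1272 and 1927 reads in RC-cells and GC-cells, and 39 and 115 in their vesicles. miR-194-5p followed at 0.301 and miR-148a-3p at 0.462. With at least 4 reads, a limit chosen after the data were seen, 315 miRNAs could be compared and miR-204-5p and miR-211-5p were added. The nearest to miR-204-5p was the star strand of miR-322, at 0.108, with 2341 and 573 reads in RC-cells and GC-cells, and 147 and 41 in their vesicles. The nearest to miR-211-5p was miR-543-3p at 0.555. Over 4 libraries such distances are a description of these libraries.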

How the data were processed

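The authors aligned small RNA reads (Illumina HiSeq) with Bowtie2 to the rat genome Rnor_6.0, annotation release 105, and tabulated them with miARma-Seq. They deposited whole-number read counts per miRNA locus, without normalization. The tools' versions, the trimming and the treatment of reads fitting more than 1 locus are not given in the sources used here. From the deposited counts, equal names were summed (28 names had several loci), divided by the library total and given as percents. Ratios at or beyond 2-fold with at least 1 read in both libraries were counted. A fold against 0 reads was set against 3 reads. Each group had 1 library, and no p-value was computed. Intervals for ratios and quotients were tried on simulated Poisson counts, the counting error for which they are built. PCR copies and differences of preparation were not simulated. Named miRNAs are all products of the rule, a fixed list of 7 further miRNAs described to act on Runx2, the 3 nearest in pattern to members with at least 10 reads in every library, and marker miRNAs of cartilage and other cell types. Those nearest to miR-204-5p and miR-211-5p, and miR-3065-5p, were named after their values were seen. The members and lists were chosen with earlier results of these data known. Sequences and gene positions came from RefSeq (GRCr8). Alternatives were TMM normalization, size factors, totals without 3 abundant miRNAs, a pseudocount of 0.5, minimums of 10 reads, a 4-fold threshold, an interval wholly beyond 2-fold, single loci and the sum of miR-204-5p and miR-211-5p. A minimum of 4 reads was added after the data were seen. Python 3.11.15, numpy 2.4.6, pandas 2.3.3, scipy 1.17.1, matplotlib 3.10.9, R 4.3.3, edgeR 4.0.16 and DESeq2 1.42.0 were used.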

Additional observations from a re-analysis of the deposited data

How the results depend on the processing

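No paired analysis was possible because the groups of each comparison had 1 library each. A fit that takes the zones as replicates of vesicles against cells was not made. Of 60 alternative values of the ratios of miR-204-5p, miR-211-5p and miR-218a-5p, 46 stayed within the counting interval and 14 moved outside it, and none changed direction. All 24 values of other members and all 9 values of the quotient of both zones stayed inside. The quotient of miR-211-5p crossed 1, from 0.980 to 1.07 with TMM normalization and 1.06 with size factors. Among the other members, whose intervals all included equal shares in these cases, the ratio crossed 1 for miR-204-3p in RC-MVs against GC-MVs (1.33 to 0.859, totals without 3 abundant miRNAs), for miR-218a-1-3p with the pseudocount in RC-MVs against RC-cells (0.840 to 1.18) and, from 0.995, in RC-cells against GC-cells, and for miR-218a-2-3p, with 2 reads in each, in RC-cells against GC-cells under all 3 other scalings. In RC-cells against GC-cells, with TMM normalization, size factors and totals leaving out miR-143-3p, miR-22-3p and miR-21-5p, the ratio of miR-204-5p was 3.44, 3.39 and 3.48 and that of miR-218a-5p was 0.585, 0.576 and 0.592. Summed with miR-211-5p, miR-204-5p gave 3.52. The ratio of miR-211-5p was 1.94 with size factors. The median log2 ratio of all miRNAs in this comparison was 0.24 with percents and -0.10, -0.12 and -0.08 with these scalings. For miR-218a-5p, TMM normalization gave 0.385 in GC-MVs against GC-cells and the totals without the 3 miRNAs gave 0.192 in RC-MVs against GC-MVs, where the median moved from 0.15 to -0.48. By locus, Mir218-1 and Mir218-2 gave 0.127 and 0.242 in RC-MVs against RC-cells, and 0.809 and 0.671 in RC-cells against GC-cells.

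With a minimum of 10 reads per library, the members higher in RC-MVs than RC-cells, in GC-MVs than GC-cells and in RC-MVs than GC-MVs were 0 each, in place of 1, 1 and 2, and 1 was lower in GC-MVs than GC-cells in place of 2. With the whole interval beyond 2-fold, and likewise at 4-fold, 1 was lower in RC-MVs than RC-cells in place of 3, 0 were higher or lower in GC-MVs than GC-cells, 1 was higher in RC-cells than GC-cells in place of 2, and 0 were higher in RC-MVs than GC-MVs in place of 2. At 4-fold, 0 were lower in RC-MVs than GC-MVs in place of 1. With TMM normalization, size factors or the totals without the 3 miRNAs, 1 was higher in RC-cells than GC-cells, and with these totals 1 was higher in RC-MVs than GC-MVs. With TMM normalization or size factors, 3 were lower in GC-MVs than GC-cells in place of 2. Shares over all miRNAs are given only for percents at 2-fold with at least 1 read in both libraries. The counts at the other settings have no such share beside them and describe single members. Arm shares do not depend on scaling. Depth limits the vesicle libraries most, where miR-211-5p in GC-MVs rests on 4 reads.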
